A study of Homo sapiens with 6 samples.

Results

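The comparison described here sets the 2 libraries of A549 cells labelled as a HOXB9 knockout (KO) against the 2 libraries of A549 cells given unchanged HOXB9 (WT), over all genes counted. These are 4 of the 6 libraries of the series, grouped by their labels, and log2 fold changes are KO minus WT. Earlier results of these data were known when the comparison was chosen. A549 is an established line from a human lung adenocarcinoma, grown here in RPMI medium with serum. All cells of the series had been stably infected with lentivirus. The WT label names the construct PLVX-HOXB9 and the KO label names PLVX-HOXB9 KO, without giving a guide, a deleted stretch, or whether the cells were 1 clone or a pool. The remaining 2 libraries (T133A) carried PLVX-HOXB9-T133A, in which a threonine of the protein is replaced by alanine, and their values are given where they help to place those of KO. No empty-vector or uninfected cells were among the groups. A difference between KO and WT therefore holds both the loss of HOXB9 and whatever the added HOXB9 does in WT. It also holds any other difference that arose between the cells given each construct, for example between clones. These sources cannot be told apart here. Nothing in the labels says that the 2 libraries of a group are separate cultures. The p-values therefore measure only how far these samples spread, and that spread may be technical.

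HOXB9 is a homeodomain protein encoded in the HOXB cluster. Genes of the HOX clusters are laid out on the chromosome in the order in which they pattern the body axis, and their products switch other genes on and off. HOX proteins bind DNA, often together with TALE homeodomain partners of the PBX, MEIS and PKNOX families. In tumours of epithelial origin HOXB9 has been studied for its part in invasion, angiogenesis and the switch between epithelial and mesenchymal states.

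Levels are given in CPM, the TMM-scaled count rate of a library, for the first and the second library of a group in that order. A value with an SE in parentheses is the log2 fold change, KO minus WT. Total counts ran from 16299059 to 18745432 per library. Between 24645 and 24880 genes had a count in WT and between 22899 and 23139 in KO. Replicates differed by more than sampling noise, with a chi-square per degree of freedom of 2.45 in WT and 12.2 in KO, so the KO pair stood further apart. Transcripts of the mitochondrial genome took 7.84% to 7.87% of the counts in WT and 4.45% to 5.60% in KO. Across genes, the KO minus WT difference went with GC content at a Spearman's rho of 0.26. Within groups, rho was 0.29 between the KO libraries and 0.18 between the WT libraries. These are correlations across genes that share libraries, and genes are not independent replicates.

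HOXB9 itself (ENSG00000170689, GRCh38 chromosome 17, 48621159 to 48626356, reverse strand) stood at 222 and 217 CPM in WT and 14.5 and 15.4 CPM in KO. Both KO libraries lay far below both WT libraries, a 14.7-fold difference (-3.88 on the log2 scale, SE 0.135, adjusted p = 3.27e-16 by edgeR). The KO libraries still held 239 and 286 counts of the gene. Counts over the whole gene do not separate construct from chromosomal copy, and they do not show whether the remaining transcripts were intact.

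The A549 label was checked against a deletion this line is known for. CDKN2A, CDKN2B and MTAP, neighbours on chromosome 9 that are lost in A549, summed to 0.467 and 0.613 CPM in WT and to 0.182 and 0.269 CPM in KO. CDKN2A and CDKN2B had 0 counts in all 4 libraries, so the WT and the KO libraries share this mark. A list of 19 A549 and alveolar markers summed to 24470 and 25630 CPM in WT and to 18000 and 19240 CPM in KO. Of its 15 tested members 8 fell and 1 (KRT7) rose, a count that was 2 without KO replicate 1. In shares, 53.3% fell and 6.67% rose, against 23.0% and 23.6% of all tested genes. Those that fell include EPCAM (-3.10, SE 0.208) and ALDH1A1 (-0.94, SE 0.114). The simple-epithelial keratins KRT8 and KRT18, named after their values were seen, were at over 1000 CPM in each of the 4 libraries and were not called. The surfactant genes SFTPA1, SFTPB and SFTPC were too low to test. Markers of other cells were sparse. Haematopoietic markers summed to 9.69 to 13.4 CPM in WT and 11.2 to 15.96 CPM in KO, nearly all from CD14 and ITGAM, with PTPRC and CD3E at 0 in KO. Endothelial markers summed to 0.891 to 1.75 CPM in WT and 0.376 to 0.606 CPM in KO. Markers of embryonic kidney lines, such as those used to package lentivirus, summed to 169.8 to 178.5 CPM in WT and 182.6 to 200.5 CPM in KO. NEFL and IGF2BP1 made up most of that sum, and the 5 tested members differed in direction. SALL4 (-2.17, SE 0.261) and LIN28B (-1.03, SE 0.177) fell, PAX2 rose (1.66, SE 0.341), and IGF2BP1 was called higher (0.28, SE 0.105) but lost this call in 7 alternatives (adjusted p 0.0504 by DESeq2 to 0.239 without KO replicate 2).

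Of 16340 genes tested, 7622 (46.6%) passed an adjusted p of 0.05 in edgeR's quasi-likelihood test. The calls split evenly into 3862 higher in KO (23.6%) and 3760 lower (23.0%), and the median log2 fold change of all tested genes was 0.001. The sizes were less even. Falls had a median of 1.87-fold and rises of 1.53-fold. At a log2 fold change of at least 1 there were 1733 falls (10.6% of tested genes) and 757 rises (4.63%), and at a log2 fold change of at least 5 there were 103 falls and 5 rises. Both KO libraries lay above both WT libraries in 37.8% of tested genes and below both in 37.5%, so separate groups alone say little about a gene here. KO against T133A, which shares the KO libraries with this comparison, called 6523 genes (39.9%), 19.6% higher and 20.3% lower. T133A against WT, which shares the WT libraries, called 1560 genes (9.55%). Rises and falls of at least 1 on the log2 scale numbered 2490 together (15.2%). Without WT replicate 1 the count called higher was 2563.

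**Figure D1:**
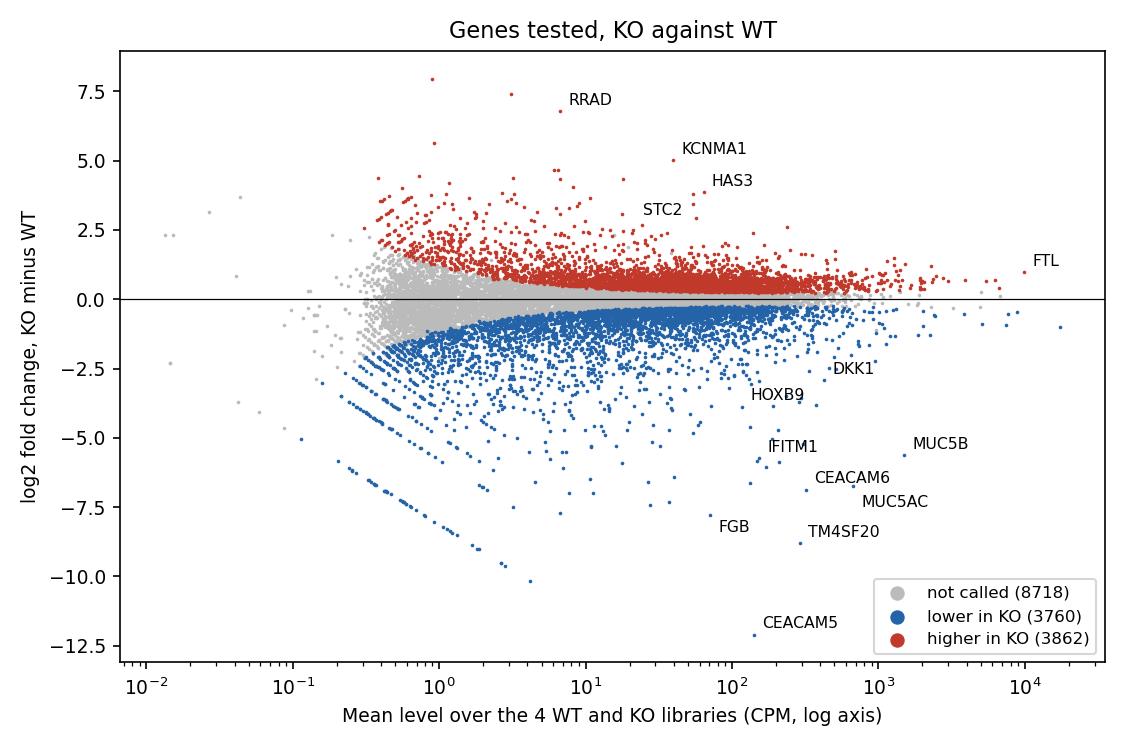
Each point is 1 of the 16340 tested genes, with its mean CPM over the 4 WT and KO libraries on a log axis and its log2 fold change (KO minus WT) on the other axis. Of the 3862 genes called higher (red) 1801 changed by under 1.5-fold, and among the 3760 called lower (blue) CEACAM5, TM4SF20, CEACAM6, MUC5AC and MUC5B combine high levels with large falls, and grey genes were not called.

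Of the 15 largest falls the first was in CEACAM5 (GRCh38 chromosome 19, 41708585 to 41729798), which encodes carcinoembryonic antigen, a cell-surface adhesion molecule and tumour marker. CEACAM5 stood at 284 and 279 CPM in WT and at 0.121 and 0 CPM in KO. It had 9879 counts in the WT libraries and 2 in the KO libraries, a ratio of 5051 with an exact 95% counting interval of 1398 to 41716, which covers counting error only. T133A libraries had 500.1 and 443 CPM, above both WT libraries. TM4SF20 (chromosome 2, 227362156 to 227381995), a tetraspanin-like membrane protein of the intestine, went from 585 and 581 CPM to 1.09 and 1.505 CPM (-8.79, SE 0.164, adjusted p = 1.25e-20 by edgeR). The tetraspanin gene TSPAN8 fell from 73.6 and 74.5 CPM to 0.667 and 0.269 CPM (-7.32, SE 0.213). GUCY2C, the receptor of the gut for guanylin and heat-stable enterotoxin, fell from 15.6 and 15.1 CPM to 0.121 and 0.107 CPM (-6.99, SE 0.35). In each of these genes the T133A libraries lay nearer to WT than to KO on a log scale, for example at 408 and 422 CPM for TM4SF20 and 107 and 99.3 CPM for TSPAN8.

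Among the 15 largest falls, 4 genes had no count in either KO library. A count of 0 allows up to 3 counts per library, 0.161 to 0.182 CPM in the KO libraries, and folds against such a group are lower bounds. MYO7B, a myosin of the brush border, had 291 counts in WT and was at least 48.3-fold lower in KO. HGF, the ligand of the MET receptor, had 197 counts in WT and was at least 32.7-fold lower. REG4, a lectin secreted by enteroendocrine and goblet cells, had 186 counts and was at least 30.9-fold lower, and the amino acid-sensing receptor gene GPRC6A had 185 counts and was at least 30.7-fold lower. Across all tested genes with at least 0.5 CPM in the other group, 41 had 0 counts in both KO libraries and 1 had 0 counts in both WT libraries (ASB2, named after its values were seen). The remaining large falls were SLC6A20, a proline transporter with 1 count left in KO against 223 (ratio 228, 95% interval 40.5 to 9047), SLITRK6, a neuronal transmembrane protein (-6.97, SE 0.378), COL3A1, the fibrillar collagen III chain with 2 counts left against 469 (ratio 239.8, 95% interval 66.0 to 1986), and the fibrinogen, mucin and CEACAM6 genes taken up below.

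Mucins, the gel-forming and membrane-bound glycoproteins of mucosal surfaces, were 15 in the list, and 8 passed the low-count filter. The 8 tested members fell, against 23.0% of all tested genes, with a median log2 fold change of -5.56. Here and in the lists that follow, a gene near 0 in KO could pass the filter only through the other libraries, so counts describe the tested members and not whole families. MUC5B, a gel-forming airway mucin, stood at 3008 and 2836 CPM in WT, 1624 and 1210.1 CPM in T133A and 53.2 and 65.4 CPM in KO (-5.62, SE 0.158). MUC5AC, its partner in airway mucus, stood at 1392 and 1280.0, 596 and 531 and 12.3 and 12.7 CPM in the same order (-6.74, SE 0.138, adjusted p = 4.96e-20). Here T133A took a place between WT and KO, closer to WT on a log scale. Membrane-bound MUC13 fell from 413 and 409.8 CPM to 6.97 and 7.04 CPM (-5.87, SE 0.129), and MUC16, which carries the CA-125 antigen, fell from 57.1 and 53.1 CPM to 0.121 and 0.484 CPM (-7.43, SE 0.25). The intestinal mucin MUC2 stood at 15.6 and 13.4 CPM and then at 0.121 and 0.484 CPM (-5.50, SE 0.325), and MUC3A at 28.1 and 24.7 CPM and then at 2.001 and 1.72 CPM (-3.83, SE 0.194). Against T133A, which shares the KO libraries, 0 were higher in KO and 8 lower. In that comparison all tested genes had 19.6% higher and 20.3% lower, which is the background for such counts in later lists too.

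Goblet-cell and gut-type secreted proteins numbered 22, of which 12 were tested and 12 fell, against 23.0% of all tested genes. Their median was -4.79, or -4.75 with the gene at 0 set to its bound. AGR2, a disulphide isomerase needed to fold mucins, fell from 583 and 599 CPM to 14.7 and 16.6 CPM (-5.24, SE 0.123). FCGBP, a protein of the mucus layer, fell from 370.3 and 354 CPM to 10.6 and 11.5 CPM (-5.03, SE 0.136). CDH17, the liver-intestine cadherin, fell from 261 and 266 CPM to 2.12 and 3.12 CPM (-6.63, SE 0.157). The secretory transcription factor gene CREB3L1 went from 57.4 and 52.7 to 2.42 and 2.26 CPM (-4.55, SE 0.174), and BPIFB1, an airway secretory protein, from 9.81 and 12.8 to 0.182 and 0.215 CPM (-5.77, SE 0.345). Only 6 of these genes had a mean of at least 5 CPM and were tested under that stricter filter, and the 6 were called lower there. Against T133A, 0 were higher in KO and 10 lower.

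CEACAM family members, immunoglobulin-like adhesion molecules clustered on chromosome 19, were 10 in the list and 5 of them tested. The 5 fell (median -6.86), against 23.0% of all tested genes. CEACAM6 stood at 637 and 628 CPM in WT, 616 and 586 CPM in T133A and 4.67 and 6.13 CPM in KO (-6.86, SE 0.145, adjusted p = 5.61e-20). CEACAM1, which is found on many epithelia, fell from 114 and 118 CPM to 4.73 and 6.07 CPM (-4.41, SE 0.144). CEACAM7 had 148 counts in WT and 1 in KO (ratio 151.3, 95% interval 26.7 to 6018). CEACAM19 moved least, from 12.1 and 10.4 CPM to 5.94 and 6.23 CPM (-0.88, SE 0.18). Reads of these similar genes may be shared between them, depending on how the counting treated multiple matches.

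Transcription factors that set epithelial lineage moved mostly in the same direction as these products. Of 22 in the list, 17 were tested, 12 fell (70.6%) and 1 rose (5.88%), with a median of -1.79. The background of all tested genes was 23.0% lower and 23.6% higher. TP63, the p63 factor of basal epithelial cells, fell from 32.6 and 30.6 CPM to 0.727 and 0.86 CPM (-5.30, SE 0.207). SPDEF, a factor of goblet-cell differentiation, stood at 33.7 and 36.2 CPM in WT, 9.36 and 7.40 CPM in T133A and 2.55 and 3.49 CPM in KO (-3.52, SE 0.187). For SPDEF the T133A libraries lay nearer to KO, and KO still differed from T133A (log2 fold change -1.46, adjusted p = 4.82e-06 by edgeR). EHF, an ETS factor of epithelia, fell from 83.7 and 88.7 CPM to 9.34 and 8.44 CPM (-3.28, SE 0.128), and the endodermal factor genes FOXA1 and HNF4A fell by 2.19 (SE 0.125) and 2.37 (SE 0.183) on the log2 scale. KLF5, a zinc-finger factor of proliferating epithelium, fell from 243 and 219 CPM to 61.1 and 69.8 CPM (-1.82, SE 0.109). The count of 1 higher was 2 without either T133A library, without KO replicate 1, with the WT and KO libraries alone and with no low-count filter. With T133A as the reference 2 were higher and 12 lower.

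Cell junction and polarity genes followed with smaller sizes. Of 30 listed, 27 were tested, 21 fell (77.8%) and 1 rose (3.70%), with a median of -0.88. Among all tested genes, 23.0% were lower and 23.6% higher. The 1 that rose was PKP3, a plakophilin of desmosomes named after its values were seen. The count of 1 higher was 3 with a correction for GC content and length, an alternative chosen after seeing the data. EPCAM, an epithelial adhesion molecule, fell from 14.5 and 16.9 CPM to 1.94 and 1.72 CPM (-3.10, SE 0.208). The tight junction genes CLDN2 and CLDN4 stood at 249.2 and 260.1 CPM and at 17.7 and 19.4 CPM in WT and at 36.1 and 46.3 CPM and at 3.52 and 2.96 CPM in KO. JUP, the plakoglobin of desmosomes and adherens junctions, fell from 369 and 369.9 CPM to 69.9 and 90.8 CPM (-2.20, SE 0.127). TJP3, a scaffold of tight junctions, and DSC2, a desmosomal cadherin, fell by 2.07 (SE 0.174) and 1.69 (SE 0.159) on the log2 scale. E-cadherin (CDH1) fell by less, with 128 and 137 CPM in WT and 64.4 and 78.8 CPM in KO (-0.88, SE 0.113, adjusted p = 1.34e-06). Set against T133A, KO had 2 higher and 18 lower, where all tested genes had 19.6% higher and 20.3% lower.

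**Figure D2:**
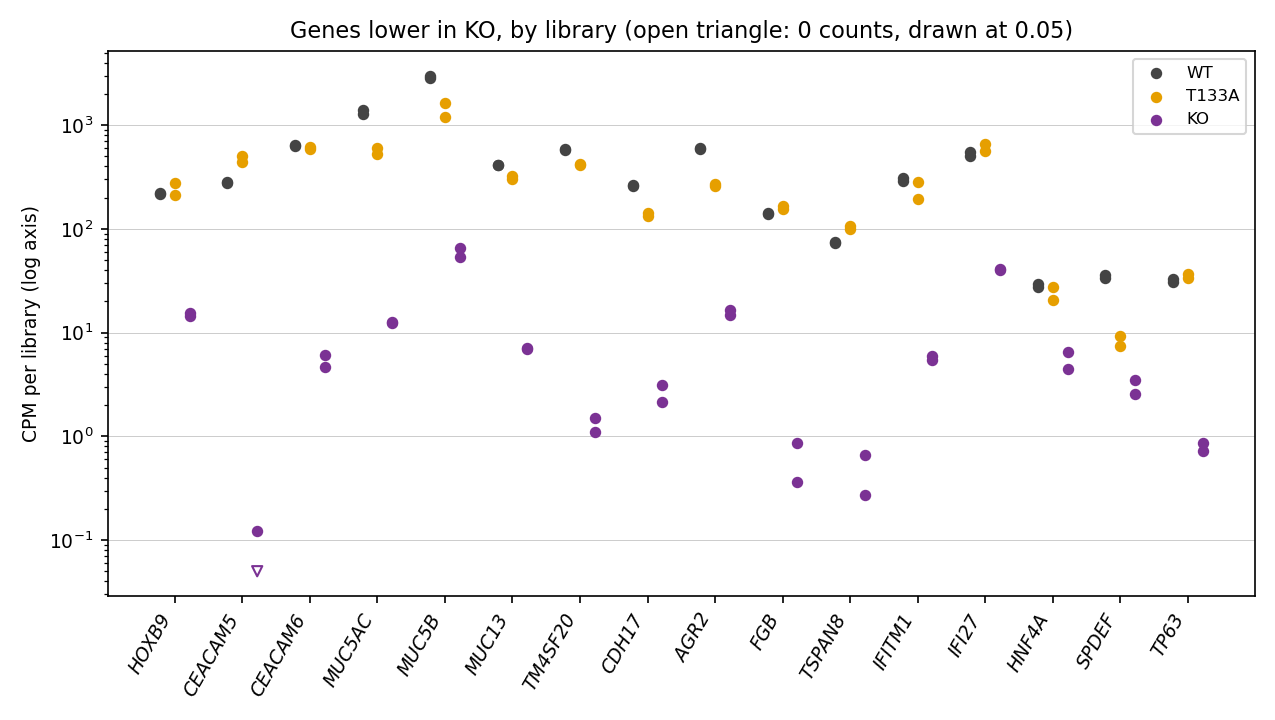
CPM per library on a log axis for 16 genes lower in KO, with 2 points each for WT (grey), T133A (orange) and KO (purple), and an open triangle at 0.05 CPM for the KO library in which CEACAM5 had 0 counts. Both KO points lie below all WT and T133A points for each of the 16 genes. For CEACAM6, MUC5AC, MUC5B, MUC13, TM4SF20, CDH17, AGR2, IFITM1 and SPDEF the T133A points lie between those of the other groups.

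Keratins did not move as a block. Of 20 listed, 12 were tested, 4 rose and 2 fell (median 0.10), against 23.6% higher and 23.0% lower among all tested genes. KRT7, a keratin of simple epithelia, rose from 869 and 886 CPM to 1923 and 1636 CPM (1.02, SE 0.113), and KRT80 from 82.4 and 90.4 to 142 and 137 CPM (0.69, SE 0.113). KRT4, found in stratified epithelia, fell from 38.8 and 40.3 CPM to 4.79 and 6.40 CPM and was at 7.58 and 5.23 CPM in T133A, where the T133A and KO libraries overlap (KO against T133A -0.19, adjusted p = 0.484 by edgeR). The intestinal keratin gene KRT20 had 37 counts in WT and 1 in KO (ratio 37.8, 95% interval 6.38 to 1534). The count of 4 higher was 2 without WT replicate 1, where KRT10 and KRT81 lost their calls, and the count of 2 lower was 4 in 9 alternatives, among them DESeq2, limma-voom, scaling by library size only, the WT and KO libraries alone and the GC and length correction.

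Mesenchymal genes, whose rise with a loss of epithelial genes defines an epithelial-mesenchymal transition, held calls in both directions. Of 27 listed, 24 were tested, 10 rose (41.7%, background 23.6%) and 6 fell (25%, near the background of 23.0%), with a median of 0.20. SNAI2, the Slug repressor of epithelial genes, stood at 0.234 and 0.334 CPM in WT and 5.88 and 6.34 CPM in KO (4.39, SE 0.431, adjusted p = 2.25e-08), a large ratio on a low level. SPARC, a secreted matrix-binding protein, rose from 14.2 and 11.9 CPM to 85.1 and 115 CPM with T133A between at 45.9 and 36.8 CPM (2.93, SE 0.156). The receptor kinase gene AXL rose from 91.3 and 97.2 CPM to 337 and 258 CPM (1.66, SE 0.124). Against this, fibronectin (FN1) fell from 1102 and 1093 CPM to 332 and 384 CPM (-1.62, SE 0.111), and S100A4, a calcium-binding protein of motile cells, from 496 and 517 CPM to 194 and 205 CPM (-1.34, SE 0.0999). The collagen crosslinking enzyme gene LOXL2 stood at 129.7 and 135 CPM in WT, 378 and 288 CPM in T133A and 324 and 305 CPM in KO, and both KO libraries lay within the range of T133A (KO against T133A -0.08, adjusted p = 0.602 by edgeR). The count of 10 higher was 6 under a mean of at least 5 CPM, and KO against T133A gave 9 higher and 9 lower.

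Among 23 collagens, 21 were tested, 8 rose and 8 fell (38.1% each), with a median of 0.27. The background of all tested genes was 23.6% higher and 23.0% lower. The collagen VI genes COL6A1 and COL6A2 rose from 26.6 and 26.8 CPM to 100.1 and 99.8 CPM and from 10.6 and 12.3 to 64.4 and 56.4 CPM. COL4A1, a chain of basement membrane collagen, rose from 44.3 and 39.2 CPM to 112 and 107 CPM (1.39, SE 0.11), while COL4A4, a chain of another collagen IV network, fell from 22.9 and 19.5 CPM to 4.06 and 4.08 CPM (-2.38, SE 0.175). COL12A1, a collagen associated with fibrils, fell from 206 and 204 CPM to 35.5 and 33.2 CPM (-2.58, SE 0.108). COL1A1 was called higher (0.57, adjusted p = 0.0255 by edgeR) and lost this call without either WT library (0.0883 and 0.102) and without KO replicate 2 (0.136). Fibroblast markers, 8 in all, summed to 42.0 to 42.4 CPM in WT and 9.70 to 10.6 CPM in KO, carried in WT by LUM (21.6 and 20.9 CPM) and COL3A1, with COL1A2, PDGFRA, PDGFRB and FAP under 1 CPM in all 4 libraries. Their part in the matrix genes was not tested.

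Integrins and laminins are the receptors and basement-membrane proteins by which epithelia hold to matrix. Of 28 listed, 27 were tested, with 6 higher (22.2%, near the background of 23.6%) and 13 lower (48.1%, background 23.0%). Their median was -0.43. The collagen receptor gene ITGA1 fell from 21.0 and 19.3 CPM to 3.58 and 4.51 CPM (-2.31, SE 0.18), and the fibronectin receptor gene ITGA5 rose from 38.4 and 38.1 CPM to 88.4 and 104 CPM (1.33, SE 0.125). Among 25 tested matrix proteases and plasminogen activation genes, 8 rose (32%) and 6 fell (24%, near the background; median -0.05). The urokinase gene PLAU rose from 44.9 and 46.4 CPM to 169.7 and 169 CPM (1.89, SE 0.105) and the sheddase gene ADAM19 from 3.50 and 4.01 to 29.04 and 34.0 CPM (3.07, SE 0.168). The urokinase receptor gene PLAUR fell from 73.6 and 82.6 CPM to 38.1 and 36.6 CPM (-1.06, SE 0.113) and the matrilysin gene MMP7 from 166 and 171 to 48.6 and 54.4 CPM (-1.71, SE 0.105). T133A held MMP7 at 479 and 481 CPM, above WT, so KO and T133A lie on opposite sides of WT for this gene.

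Interferon-stimulated genes, induced after interferon binds its receptor, were lower in KO with 1 exception. Of 40 listed and tested, 39 fell and 0 rose, against 23.0% lower among all tested genes, with a median of -1.77. The member not called was GBP1, named after its values were seen (-0.24, adjusted p = 0.176 by edgeR). IFITM1, a membrane protein that restricts virus entry, fell from 289.7 and 312 CPM to 5.46 and 5.91 CPM (-5.72, SE 0.173, adjusted p = 2.71e-17). BST2, known as tetherin, which holds virions at the cell surface, fell from 106 and 118 CPM to 5.46 and 4.14 CPM (-4.55, SE 0.145). IFI27, a mitochondrial interferon-induced protein, fell from 506 and 553 CPM to 39.9 and 40.7 CPM (-3.72, SE 0.118). The synthetase gene OAS2 fell from 432 and 424 CPM to 35.7 and 40.3 CPM (-3.49, SE 0.112), and IFI6, an inhibitor of apoptosis in interferon-treated cells, from 852 and 905 to 153 and 157 CPM (-2.50, SE 0.108). IFI44L stood at 149.5 and 144 CPM in WT, 90.2 and 104 CPM in T133A and 22.4 and 18.8 CPM in KO (-2.83, SE 0.123). KO against T133A gave 0 higher and 40 lower, with the KO libraries shared.

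Promoters of these genes are shown because the members move together and their activating complex reads a known sequence. The interferon-stimulated response element was searched on both strands as its core (TTTC, any 2 bases, TTTC), in windows of 250 bases before to 50 after the start, from RefSeq (GRCh38.p14). Matches may overlap, as the pair in BST2 does. Of 40 genes, 30 had a promoter in the table, and 23 of these (76.7%) held a match. The share was 4.05% of tested genes with a promoter (453 of 11191), 3.28% of those called higher, 6.12% of those called lower, and 3.57% of all 35116 promoters in the table. At a log2 fold change of at least 2 it was 5.34% of those higher and 9.01% of those lower. The genes called lower include 39 of the 40 listed here, which adds to their share. The list holds genes whose activating complex reads this sequence, so its own share tests nothing. In each line the capitals mark the match, 5′ to 3′ along the gene's strand.
IFITM1 (chr11:313790-314089, forward): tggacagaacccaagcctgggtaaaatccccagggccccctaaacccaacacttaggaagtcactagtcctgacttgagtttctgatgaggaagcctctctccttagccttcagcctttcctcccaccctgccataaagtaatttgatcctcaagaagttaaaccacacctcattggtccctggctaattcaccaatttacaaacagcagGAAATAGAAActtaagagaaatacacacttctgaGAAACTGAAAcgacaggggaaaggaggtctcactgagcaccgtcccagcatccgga
IFI27 (chr14:94110486-94110785, forward): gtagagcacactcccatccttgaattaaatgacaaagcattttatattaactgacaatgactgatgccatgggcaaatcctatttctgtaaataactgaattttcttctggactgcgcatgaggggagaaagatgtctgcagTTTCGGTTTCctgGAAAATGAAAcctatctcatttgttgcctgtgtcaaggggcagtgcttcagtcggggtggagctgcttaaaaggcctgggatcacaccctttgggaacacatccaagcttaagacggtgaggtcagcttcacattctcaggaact
BST2 (chr19:17405581-17405880, reverse): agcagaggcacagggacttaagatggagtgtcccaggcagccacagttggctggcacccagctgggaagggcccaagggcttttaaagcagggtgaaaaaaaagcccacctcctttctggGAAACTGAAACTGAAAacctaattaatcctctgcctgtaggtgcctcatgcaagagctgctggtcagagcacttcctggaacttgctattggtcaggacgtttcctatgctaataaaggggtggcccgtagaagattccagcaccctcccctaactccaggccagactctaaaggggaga
IFI6 (chr1:27672143-27672442, reverse): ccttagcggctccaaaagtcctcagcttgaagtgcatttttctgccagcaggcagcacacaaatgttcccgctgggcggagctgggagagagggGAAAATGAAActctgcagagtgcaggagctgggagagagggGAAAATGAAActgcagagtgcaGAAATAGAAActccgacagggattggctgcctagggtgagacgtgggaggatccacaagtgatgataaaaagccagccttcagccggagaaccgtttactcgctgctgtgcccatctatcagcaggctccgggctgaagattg
IFI44L (chr1:78620198-78620497, forward): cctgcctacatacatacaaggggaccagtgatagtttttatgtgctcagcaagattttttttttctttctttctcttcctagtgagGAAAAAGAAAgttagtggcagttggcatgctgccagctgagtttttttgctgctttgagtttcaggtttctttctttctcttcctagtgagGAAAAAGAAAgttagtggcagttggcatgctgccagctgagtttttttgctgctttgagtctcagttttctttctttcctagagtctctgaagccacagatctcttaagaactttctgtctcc
The first base of a match lay at -40 and -6 from the start in IFITM1, at -108 and -95 in the IFI27 window shown, at -130 and -124 in BST2, at -156, -115 and -93 in IFI6 and at -164 and -73 in IFI44L. The 23 interferon-stimulated genes with a match had a median log2 fold change of -2.05 (lowest -5.72, highest -0.24), and the 7 without had -1.68 (lowest -3.87, highest -0.80), a difference that was not tested. A PBX-HOX composite, searched as TGATTTAT on both strands, was held by 0.661% of tested genes with a promoter (74 of 11191), 0.468% of those called higher and 0.770% of those called lower. A match is a description of letters in a window, not a bound site.

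HLA and antigen presentation genes fell as well, by less. Of 27 listed, 21 were tested, 15 fell (71.4%) and 2 rose (9.52%), with a median of -0.55. The background of all tested genes was 23.0% lower and 23.6% higher. The class I gene HLA-B stood at 178 and 192 CPM in WT and at 37.3 and 36.5 CPM in KO, and the class I light chain gene B2M at 1284 and 1356 CPM and then at 396 and 439.7 CPM (-1.66, SE 0.107). HLA-DMB, a chaperone of class II peptide loading, fell from 52.0 and 58.0 CPM to 0.788 and 2.20 CPM (-5.16, SE 0.23). Reads of HLA genes may be shared among them. The 2 that rose, CD74 and CIITA, were named after their values were seen. That count was 0 by DESeq2, under a mean of at least 5 CPM and without WT replicate 1 or KO replicate 2, and 1 without WT replicate 2 or KO replicate 1. Compared with T133A, 0 were higher in KO and 16 lower.

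Complement and acute-phase genes, a hepatic and mucosal defence set, had 24 of 29 tested, with 18 lower (75%) and 0 higher. Their median was -2.28, or -2.15 with genes at 0 set to their bounds. Across all tested genes 23.0% were lower and 23.6% higher. Fibrinogen is assembled from the FGA, FGB and FGG chains, whose genes neighbour each other on chromosome 4. FGB (GRCh38 chromosome 4, 154562956 to 154571086) fell from 143 and 139 CPM to 0.364 and 0.86 CPM (-7.80, SE 0.196), FGA from 109 and 99.97 to 2.49 and 4.78 CPM (-4.82, SE 0.182) and FGG from 65.7 and 60.6 to 1.21 and 1.99 CPM (-5.28, SE 0.181). The 3 chains fell together, and T133A held all of them at 66.5 CPM or more. CD55, a complement inhibitor on the cell surface, fell from 697 and 693 CPM to 49.0 and 49.3 CPM (-3.82, SE 0.113). The comparison with T133A gave 0 higher and 21 lower, where all tested genes had 19.6% higher and 20.3% lower.

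NF-kB and inflammatory cytokine genes were called in both directions, each more often than all tested genes (23.6% higher and 23.0% lower). Of 31 listed, 29 were tested, 13 rose (44.8%) and 10 fell (34.5%; median 0.56, or 0.40 with genes at 0 set to their bounds). The neutrophil chemokine CXCL5 fell from 791 and 757 CPM to 135 and 144 CPM (-2.47, SE 0.116), while T133A held 4943 and 5624 CPM. CXCL1, CXCL2 and CXCL3, of the same family, fell by 2.55 (SE 0.123), 2.62 (SE 0.167) and 3.70 (SE 0.196) on the log2 scale. NFKBIZ, an atypical inhibitor that drives a subset of NF-kB targets, fell from 54.9 and 52.7 CPM to 7.58 and 9.30 CPM (-2.67, SE 0.137). NFKB2, a subunit of the non-canonical pathway, rose from 47.8 and 49.8 CPM to 142 and 134 CPM (1.498, SE 0.113), and T133A had 144 and 120.1 CPM. KO against T133A gave 1 higher and 21 lower. The T133A libraries hold CXCL1, CXCL2 and CXCL3 at 130.5 CPM or more, above both WT libraries. The sequences of these CXCL genes are close, and reads could be split among them.

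The 15 largest rises started from under 10 CPM in both WT libraries. KCNMA1 (GRCh38 chromosome 10, 76869601 to 77638369), the pore of the BK potassium channel, stood at 2.51 and 2.23 CPM in WT, 6.49 and 6.69 CPM in T133A and 75.0 and 79.4 CPM in KO (5.02, SE 0.165, adjusted p = 1.19e-16). HAS3 (chromosome 16, 69105564 to 69118719), a hyaluronan synthase, stood at 7.53 and 8.86, 16.9 and 15.6 and 129 and 109.8 CPM in the same order (3.86, SE 0.142). OLFML3, a secreted olfactomedin-like protein, went from 1.17 and 2.23 CPM to 33.4 and 35.8 CPM (4.34, SE 0.236). RRAD, a small GTPase that limits calcium channels, rose from 0.0584 and 0.167 CPM to 12.97 and 13.7 CPM (6.78, SE 0.416), LYPD1 from 0.817 and 0.446 to 12.4 and 13.2 CPM, and the synaptotagmin gene SYT6 from 0.409 and 0.501 to 11.5 and 12.04 CPM. PADI3, an enzyme that turns arginine into citrulline, rose from 1.58 and 1.56 CPM to 19.5 and 20.4 CPM (3.66, SE 0.213). CCBE1, a secreted protein of lymphatic growth, had 1 count in WT and 213 in KO (ratio 208, 95% interval 37.0 to 8265). TNFRSF9, the costimulatory receptor 4-1BB, stood at 0.701 and 0.223 CPM in WT, 5.52 and 5.97 CPM in KO and 7.52 and 6.46 CPM in T133A, and both stood above WT (KO against T133A -0.28, adjusted p = 0.365 by edgeR). Other rises among the 15 largest were in RNF182, MARCH4, PEAR1 and RASGRF2, between 3.53 and 4.66.

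**Figure D3:**
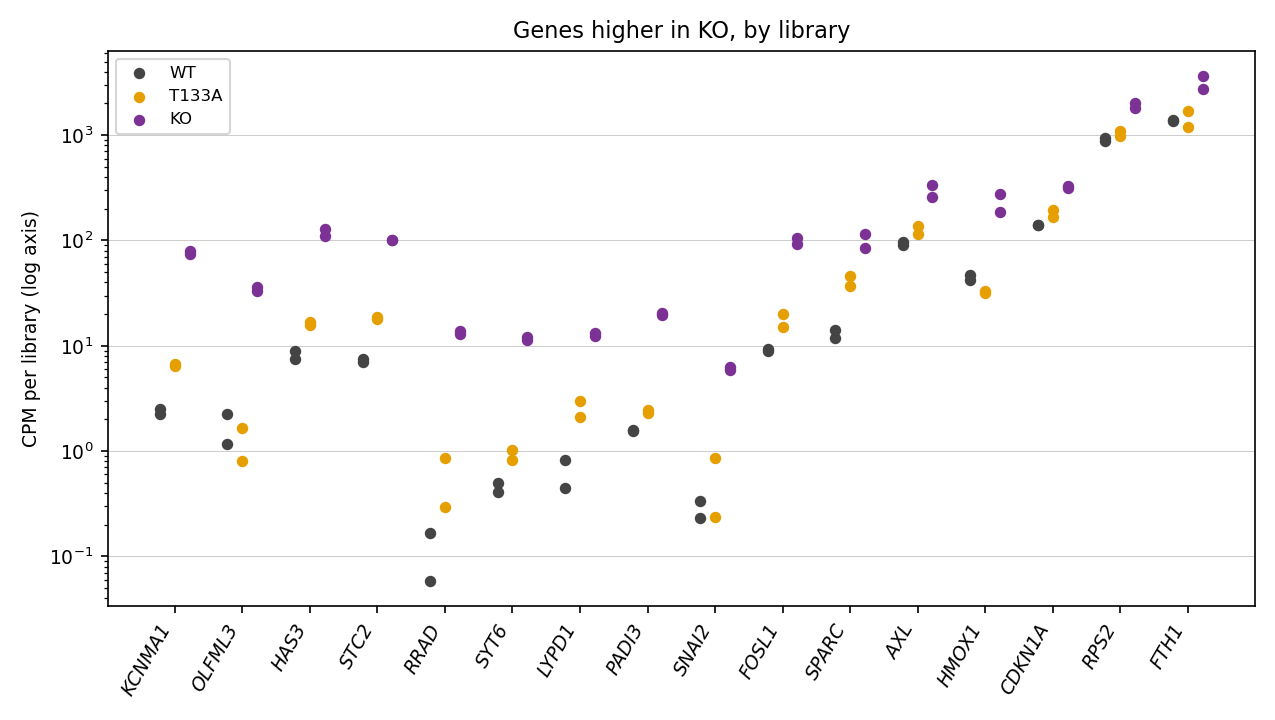
CPM per library on a log axis for 16 genes higher in KO, with 2 points each for WT (grey), T133A (orange) and KO (purple). Both KO points lie above all WT points for each of the 16 genes, and KCNMA1, HAS3 and STC2 are among those with T133A points between the other groups.

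By absolute level the largest rises were in housekeeping and iron genes. The ferritin chains FTL and FTH1, which store iron, rose from 6545 and 6725 CPM to 10770.0 and 15502 CPM and from 1361 and 1393 to 2729.6 and 3645 CPM, where the 2 KO libraries themselves lay well apart. The actin genes ACTG1 and ACTB rose by 0.69 (SE 0.115) and 0.66 (SE 0.117) on the log2 scale. The glycolytic genes GAPDH and ENO1 rose by 0.71 (SE 0.118) and 0.78 (SE 0.115), and FLNA, which crosslinks actin, by 0.83 (SE 0.114). EEF1A1, an elongation factor, rose by 0.41 (adjusted p = 0.00513 by edgeR) and lost its call without WT replicate 1 (0.0745) or WT replicate 2 (0.0585). The largest falls by level were in mitochondrial transcripts and in ALDH1A1, the retinaldehyde dehydrogenase that A549 makes in quantity (9596 and 9871 CPM in WT, 5191 and 4949 CPM in KO, -0.94, SE 0.114), MUC5B and the reductase gene AKR1C2.

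Cytosolic ribosomal protein genes rose almost as a whole by small amounts. Of 50 listed and tested, 49 rose and 0 fell, against 23.6% higher among all tested genes (median 0.64). RPS2 went from 876 and 945 CPM to 1814 and 2009.5 CPM (1.07, SE 0.109) and RPL35 from 178 and 206 to 386 and 404 CPM (1.04, SE 0.112). The exception was RPL22, named after its values were seen (0.09, adjusted p = 0.519 by edgeR). Retrocopies of ribosomal genes could share reads with them. Relative to T133A, 46 were higher and 0 lower. With the GC and length correction 49 were called higher and 0 lower.

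Transcripts of the mitochondrial genome, 15 listed and tested, fell in 11 cases and rose in 1 (MT-ND3, named after its values were seen; median -0.53), the latter count being 2 without KO replicate 1. The complex I gene MT-ND5 fell from 3196 and 3179.7 CPM to 1502 and 1124 CPM (-1.28, SE 0.126), and the complex IV gene MT-CO1 from 23059 and 23250.0 to 13286 and 9964 CPM (-0.99, SE 0.139). The 2 KO libraries differed between themselves, with KO replicate 2 lower for both genes. Nuclear genes of oxidative phosphorylation moved the other way, with 21 of 40 higher and 0 lower (median 0.31). The 52.5% higher compares with 23.6% of all tested genes, and the 73.3% of mitochondrial genome transcripts lower with 23.0%. The count of 0 lower was 1 in 7 alternatives, among them RLE size factors, the replicate block and the WT and KO libraries alone. CYC1, of complex III, rose from 167 and 172 CPM to 288 and 313 CPM (0.82, SE 0.106), and NDUFB10, of complex I, from 74.1 and 77.6 to 128 and 139 CPM (0.82, SE 0.122). Leaving out WT replicate 1 gave 10 in place of 21, and leaving out WT replicate 2 gave 13.

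Growth-related lists lay somewhat higher. Replication genes had 67.5% higher, and mitosis genes 55.6% higher and 5.56% lower. The background of all tested genes was 23.6% higher and 23.0% lower. DNA replication and G1/S genes rose in 27 of 40 and fell in 0, or 1 with the GC and length correction (median 0.46). The helicase subunit gene MCM2 rose from 74.9 and 76.9 CPM to 119 and 147 CPM (0.81, SE 0.115), and CDT1, which loads the helicase, from 46.0 and 43.2 to 80.6 and 90.6 CPM (0.94, SE 0.119). CCNE1, cyclin E1, went from 25.9 and 30.3 CPM to 54.8 and 52.7 CPM (0.93, SE 0.133). Mitosis genes rose in 20 of 36 and fell in 2 (CENPE and ECT2, named after their values were seen; median 0.35), and 12 or 13 rose when WT replicate 1 or 2 was left out. The count of 2 lower was 1 by DESeq2, with the GC and length correction and without WT replicate 1 or KO replicate 2. CDC20, which activates the anaphase-promoting complex, rose from 84.9 and 82.6 CPM to 203 and 218 CPM (1.33, SE 0.108), and the mitotic kinase gene PLK1 from 107 and 109.8 to 210.2 and 242 CPM (1.06, SE 0.109). KO against T133A gave 30 higher and 0 lower for replication genes and 24 higher and 0 lower for mitosis genes.

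p53 targets also rose, in 21 of 29 (72.4%), with 1 lower (3.45%) and a median of 0.50. The background of all tested genes was 23.6% higher and 23.0% lower. CDKN1A, the p21 inhibitor of cyclin-dependent kinases, went from 139.8 and 142 CPM to 317 and 326 CPM (1.19, SE 0.104), the pro-apoptotic gene BAX from 77.9 and 88.9 to 194 and 192 CPM (1.21, SE 0.108), and PHLDA3, an inhibitor of AKT, from 38.4 and 43.8 to 99.1 and 108 CPM (1.33, SE 0.121). The 1 that fell was FUCA1, named after its values were seen, and this count was 2 under a mean of at least 5 CPM, with the WT and KO libraries alone, without either T133A library and without KO replicate 1. Relative to T133A, 19 were higher and 2 lower. ATF4 targets, genes of the amino acid stress response, rose in 23 of 33 (69.7%) with 1 lower (3.03%) and a median of 0.51. STC2, a secreted glycoprotein, stood at 7.06 and 7.46 CPM in WT, 18.6 and 18.03 CPM in T133A and 102 and 100.4 CPM in KO (3.80, SE 0.135). PSAT1, an enzyme of serine synthesis, rose from 92.9 and 93.6 CPM to 247 and 248 CPM (1.41, SE 0.102) and the amino acid transporter gene SLC7A5 from 875 and 889.8 to 2092 and 2204 CPM (1.28, SE 0.108). SLC38A2, a transporter of the same list, was the 1 that fell (-0.91, SE 0.109), and that count was 2 under the same 5 alternatives. Endoplasmic reticulum folding genes, another stress set, went the other way, with 16 of 21 lower (76.2%) and 1 higher (4.76%). Their median was -0.47. XBP1, the factor that drives the secretory programme, fell from 152 and 151 CPM to 64.6 and 81.8 CPM (-1.05, SE 0.114), and HSP90B1, a chaperone, from 1297 and 1309.8 to 762 and 674 CPM (-0.86, SE 0.108). The 1 higher was SEC61B, named after its values were seen, and it was 0 without WT replicate 1 or KO replicate 2.

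**Figure D4:**
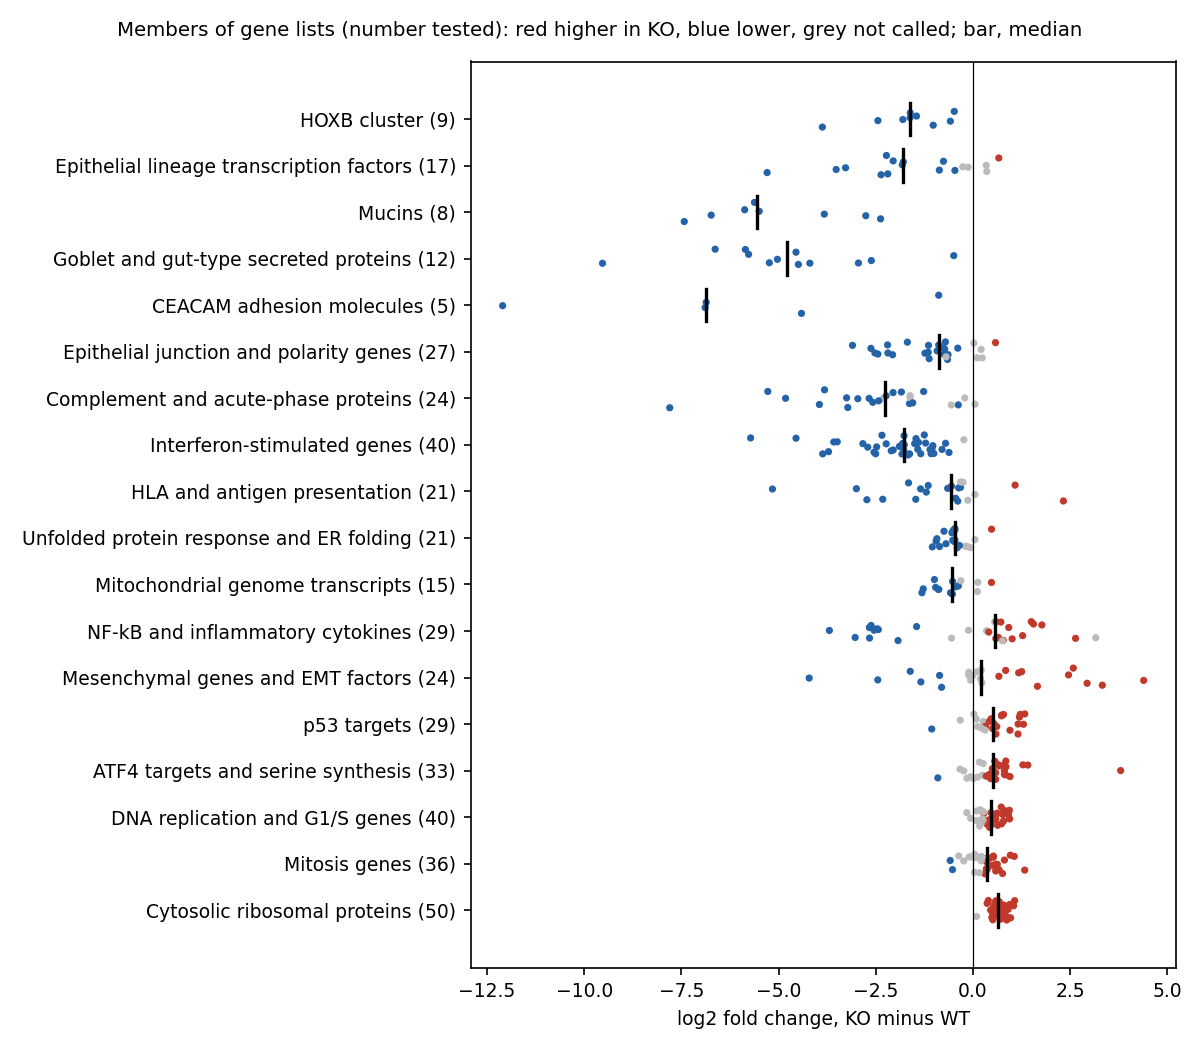
Log2 fold change (KO minus WT) of the tested members of 18 gene lists, 1 point per gene and the number of tested members in brackets, with red higher, blue lower, grey not called and a black bar at the list median. Mucins, goblet-type genes and CEACAM genes lie at the far left with medians of -5.56, -4.79 and -6.86, and ribosomal protein genes cluster right of 0 with a median of 0.64. The HOXB list includes HOXB9 itself.

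The neighbours of HOXB9 in the HOXB cluster were lower in KO. Leaving out HOXB9 itself, 9 were listed, HOXB1 was not tested and the other 8 fell (median -1.53), against 23.0% of all tested genes. HOXB6 fell from 23.8 and 24.3 CPM to 8.55 and 7.15 CPM (-1.62, SE 0.153), HOXB3 from 30.5 and 35.1 to 10.3 and 8.49 CPM (-1.81, SE 0.15) and HOXB5 from 15.6 and 12.5 to 4.67 and 5.54 CPM (-1.45, SE 0.185). HOXB8, next to HOXB9, fell from 24.3 and 25.2 CPM to 10.1 and 14.1 CPM (-1.02, SE 0.156), and HOXB2, toward the other end of the cluster, from 1.87 and 2.23 to 0.364 and 0.376 CPM (-2.45, SE 0.466). In the annotation HOXB7 overlaps HOXB9 and HOXB8, and HOXB3 overlaps several neighbours, which makes the split of reads among them uncertain. For the same 8 neighbours, KO against T133A gave 0 higher and 6 lower. Of the HOXA, HOXC and HOXD genes, 19 of 29 were tested, 4 rose and 3 fell, shares of 21.1% and 15.8% that do not exceed those of all tested genes. HOXC6 fell from 17.6 and 21.2 CPM to 5.58 and 4.35 CPM (-1.97, SE 0.18) and HOXA13 from 10.9 and 10.03 to 4.36 and 4.19 CPM (-1.29, SE 0.189). The count of 4 higher was 0 without WT replicate 2, 1 by DESeq2, and 2 without KO replicate 2, under a mean of at least 5 CPM and with the GC and length correction, and HOXA3 and HOXA10, at 0.57 and 0.62 in the full comparison, are among the calls lost. Among 8 tested TALE partners 1 rose (12.5%) and 2 fell (25%). These shares do not stand out from the 23.6% higher and 23.0% lower of all tested genes. Those that fell were MEIS3 (-0.44, SE 0.132) and PKNOX1 (-0.43, SE 0.141). The count of 2 lower was 1 without either WT library and 0 without KO replicate 2, and the count of 1 higher was 2 without KO replicate 1 and 3 with the GC and length correction.

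Growth factor and signalling lists held calls in both directions, as did all tested genes (23.6% higher and 23.0% lower). In the EGF family 6 of 12 tested genes rose and 5 fell, the latter 3 under a mean of at least 5 CPM. The ligand gene NRG1 rose from 33.4 and 37.4 CPM to 153 and 136 CPM (2.03, SE 0.114) and the receptor gene EGFR from 148 and 142 to 285 and 254 CPM (0.90, SE 0.101), whereas ERBB3, a receptor for NRG1, fell from 19.3 and 19.1 CPM to 2.85 and 2.15 CPM (-2.94, SE 0.194). In the angiogenic list, 18 tested, 7 rose (4 under a mean of at least 5 CPM) and 8 fell. VEGFA stood at 28.4 and 27.1 CPM in WT and 51.0 and 48.1 CPM in KO (0.84, SE 0.121). Among 36 TGF-beta and BMP genes 14 rose and 14 fell (38.9% each). SMAD3, a transducer of TGF-beta, rose from 261 and 255 CPM to 652 and 615 CPM (1.30, SE 0.103), and the ligand gene BMP4 fell from 72.9 and 73.3 CPM to 19.9 and 23.4 CPM (-1.75, SE 0.119). FST, which encodes the activin trap follistatin, fell from 11.6 and 10.5 CPM to 0.364 and 0.43 CPM (-4.77, SE 0.29). Among 30 WNT genes 7 rose (23.3%, near the background) and 14 fell (46.7%). DKK1, a secreted WNT inhibitor, fell from 766 and 741 CPM to 108 and 92.1 CPM (-2.91, SE 0.114), and AXIN2, a feedback target, from 39.1 and 36.0 to 12.9 and 19.3 CPM (-1.21, SE 0.154). Among 23 Notch genes 8 rose (34.8%) and 3 fell (13.04%). The ligand genes JAG1 and JAG2 rose by 1.24 (SE 0.108) and 1.23 (SE 0.117) on the log2 scale. The count of 8 higher was 5 without WT replicate 2 or under a mean of at least 5 CPM and 4 without KO replicate 2, and the 3 lower were 5 with the GC and length correction.

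In the ERK and immediate early list 6 of 30 rose (20%) and 13 fell (43.3%), where all tested genes had 23.6% higher and 23.0% lower. The AP-1 gene FOSL1 rose from 8.93 and 9.36 CPM to 105 and 93.4 CPM (3.44, SE 0.149) while FOS, of the same family, fell from 20.7 and 22.9 CPM to 2.24 and 2.74 CPM (-3.12, SE 0.187). Among 27 YAP and TEAD targets 12 rose (44.4%) and 5 fell (18.5%). CYR61, a matricellular protein, rose from 22.5 and 25.1 CPM to 67.2 and 51.7 CPM (1.32, SE 0.138) and NT5E, which makes adenosine outside the cell, fell from 188 and 189 CPM to 49.6 and 34.7 CPM (-2.16, SE 0.13). Semaphorin, ephrin and other axon guidance genes, 34 tested, had 9 higher (26.5%, near the background) and 15 lower (44.1%). SEMA3B, a semaphorin studied as a tumour suppressor in lung, fell from 176 and 184 CPM to 25.8 and 28.8 CPM (-2.72, SE 0.122), and the receptor gene EPHB2 rose from 36.7 and 32.6 CPM to 97.2 and 104 CPM (1.54, SE 0.116). Of 19 tested IGF binding and S100 genes 4 rose (21.1%) and 8 fell (42.1%). IGFBP3 fell from 1099.9 and 1041 CPM to 383 and 375 CPM (-1.498, SE 0.123), and IRS2, an adaptor of insulin receptors, from 209 and 204 to 34.3 and 32.4 CPM (-2.63, SE 0.11). Of 18 tested stem-cell and drug resistance genes 4 rose (22.2%) and 10 fell (55.6%). The efflux pump gene ABCG2 fell from 127 and 130.2 CPM to 29.8 and 31.1 CPM (-2.08, SE 0.108), and HMGA2, a chromatin protein of embryonic cells, rose from 19.9 and 22.4 CPM to 58.9 and 60.3 CPM (1.49, SE 0.125).

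The remaining metabolic lists were mixed, apart from drug and alcohol metabolism. The background of all tested genes was 23.6% higher and 23.0% lower. Of 36 CYP, UGT, SULT, ADH and ALDH genes, 29 were tested, 18 fell (62.1%) and 4 rose (13.8%), with a median of -0.68. The alcohol dehydrogenase gene ADH1C stood at 79.6 and 80.0 CPM in WT, 22.9 and 19.6 CPM in T133A and 0.546 and 1.29 CPM in KO (-6.40, SE 0.214). CYP3A5, which oxidises many drugs, fell from 22.2 and 21.8 CPM to 2.24 and 2.53 CPM (-3.20, SE 0.191). Targets of NRF2, the antioxidant regulator that a KEAP1 mutation leaves active in A549, had 14 of 35 higher and 14 lower (40% each). HMOX1, haem oxygenase, rose from 41.7 and 46.8 CPM to 188 and 279 CPM (2.40, SE 0.144), and the 2 KO libraries lay far apart but above all WT libraries. The reductase gene AKR1C1 fell from 815 and 809 CPM to 161 and 219.6 CPM (-2.09, SE 0.124), and reads of AKR1C1, AKR1C2 and AKR1C3 may be shared. The count of 14 lower was 9 without either WT library. Among 35 glycolysis and hypoxia genes 15 rose (42.9%) and 6 fell (17.1%, under the background). The phosphofructokinase activator gene PFKFB3 rose from 269 and 268 CPM to 711 and 767 CPM (1.46, SE 0.108). The carbonic anhydrase gene CA12 fell from 1353 and 1357 CPM to 507 and 649 CPM (-1.23, SE 0.119).

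Among 28 cholesterol genes 5 rose (17.9%) and 11 fell (39.3%). The count of 5 higher was 3 and 2 without WT replicates 1 and 2, and 8 and 1 without KO replicates 1 and 2. Among 33 tested fatty acid genes 7 rose and 9 fell, and these shares (21.2% and 27.3%) lie near those of all tested genes (23.6% and 23.0%). The count of 7 higher was 4 without WT replicate 1, 3 without WT replicate 2 and 4 without KO replicate 2. PPARGC1A, a coactivator of mitochondrial genes, fell from 18.2 and 18.2 CPM to 2.30 and 3.12 CPM (-2.73, SE 0.224). Among 17 AMPK pathway genes 6 rose and 7 fell, and the 7 lower were 3 without either WT library and without KO replicate 2, and 4 with the GC and length correction. In the full comparison the AMPK shares were 35.3% higher and 41.2% lower. SESN2, a stress-induced activator of AMPK, rose from 14.1 and 14.98 CPM to 26.4 and 29.8 CPM (0.95, SE 0.142). Among 34 lysosome and autophagy genes 6 rose and 9 fell, shares of 17.6% and 26.5% that likewise lie near the background, and 14 fell with the GC and length correction. SQSTM1, the p62 autophagy receptor, rose from 643 and 682 CPM to 1512 and 2238 CPM (1.5, SE 0.137) and GAA, which breaks down lysosomal glycogen, fell from 268 and 276 CPM to 111 and 108 CPM (-1.31, SE 0.102).

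Non-coding genes were selected by the same rule of size. LINC01133 (GRCh38 chromosome 1, 159961218 to 159984750), a long intergenic RNA, had 315 counts in WT and 3 in KO (ratio 107.4, 95% interval 36.4 to 523.5). LNCAROD stood at 9.98 and 9.47 CPM in WT, 16.8 and 24.3 CPM in T133A and 0.364 and 0.591 CPM in KO, and LINC01559 fell from 5.55 and 5.18 CPM to 0.242 and 0.107 CPM. LINC00973 rose from 2.74 and 2.17 CPM to 17.2 and 17.5 CPM (2.82, SE 0.208), and LINC00941 from 1.93 and 1.28 to 7.70 and 5.80 CPM (2.07, SE 0.272). Values of antisense and overlapping genes are uncertain, since the strand setting of the counting is not known.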

How the data were processed

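RNA sequencing of A549 cells was analysed from 6 libraries in 3 groups of 2. The authors deposited 1 file per library with a read count per gene (whole numbers, not normalized) and an FPKM value. HISAT2 2.0.5, featureCounts 1.5.0 and GRCh38 appear in the submitters' processing notes. Strand setting and annotation release: not given in the sources used here. The library size implied by the deposited FPKM values was 0.967 to 1.03 of the total count, and FPKM served for that check only. The files had 27 gene names turned into dates, restored from the gene identifiers.

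Counts were fitted with edgeR 4.0.16 (R 4.3.3; quasi-likelihood, robust, TMM, filterByExpr), group as the only term, over all 6 libraries and 16340 genes, with Benjamini-Hochberg adjustment and a threshold of 0.05, two-sided. The biological coefficient of variation was 8.96%. The standard error is the size of a log2 fold change divided by the root of its F. Ratios on 1 to 3 counts have exact 95% intervals. The 48 gene lists, the members of the comparison and the naming rule were chosen with earlier results of these data known. Named genes are HOXB9, the 15 largest rises and falls among protein-coding genes called at 2-fold or more with 5 CPM or more in one group and no overlap, the 8 largest each way by CPM difference, 4 non-coding genes each way, and up to 6 called members per list with the smallest adjusted p. Genes outside this rule are said to be named after their values were seen. On simulated counts with 200 changed genes (15913 tested), edgeR recovered 52.2% of 1.5-fold, 85.1% of 2-fold and 97.0% of 4-fold changes and called 6 unchanged genes. The simulated rises and falls were balanced and few. In the data 7622 genes were called, with more large falls than large rises, so these rates may not hold there. Same-numbered libraries did not deviate together (WT with KO, correlation 0.02). Alternatives were RLE or library-size scaling, DESeq2 1.42.0, limma-voom (limma 3.58.1), other filters, the 2 groups alone, a replicate block, each library left out, mitochondrial transcripts left out, a minimum log2 fold change of 1 and, chosen after seeing the data, a GC and length correction. Promoters are from RefSeq. Some genes that the naming rule selects are not reported here.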

Additional observations from a re-analysis of the deposited data

How the results depend on the processing

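Between 5306 and 8491 genes were called with any 1 library left out, 2563 to 4417 of them higher and 2743 to 4201 lower, and each such fit assumes that the lone library of a group varies like the others. The count called higher fell to 2563 without WT replicate 1. A 2-fold minimum left 2490 genes, 757 higher and 1733 lower. With the replicate number as a block, 7165 genes were called (93.2% of the calls without it kept), but the numbers do not pair the samples (correlations of deviations 0.02, -0.05 and -0.12). DESeq2 called 6548 genes, limma-voom 7683 and the GC and length correction 8296 (4390 higher and 3906 lower). Among calls shared with each alternative, 0 had the opposite sign. HOXB9 stayed lower in each alternative run. Of the named genes, 11 lost their call in at least 1 alternative (among them EEF1A1, HOXA3, HOXA10, HOXC11, MEIS3, PKNOX1, KRT10, KRT81, COL1A1 and IGF2BP1) and 0 reversed; the cause was not tested. Of 1440 list counts under the alternatives, 99 moved by over 1.5 times. Differences of low genes are limited by a floor of 3 counts per library.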

Other observations

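The following patterns were noticed in the data and are given as values. KO minus WT changes were unequal between chromosomes. On chromosome 19, 38.6% of 1081 tested genes were higher and 13.4% lower, and after correction for GC content and length the shares were 31.2% and 20.1%. Chromosome 4 lay the other way, with 14.7% of 607 higher and 33.9% lower (22.1% and 30.2% after the correction). In 1155 windows of 30 neighbouring genes, the highest median was 0.63, at GRCh38 chromosome 19, 57351307 to 58315663, where 28 of 30 genes had zinc-finger symbols, 19 were called higher and 1 lower. The corrected median there was 0.69, and T133A minus WT gave 0.04. The lowest, -0.61, lay on chromosome 2, 181891833 to 191151596, and was -0.21 after the correction.

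Gene types differed as well. All tested genes had 23.6% higher and 23.0% lower, and protein-coding genes 26.6% and 23.8%. Among 665 long intergenic RNAs 9.47% were higher and 19.7% lower, among 789 antisense genes 7.10% and 19.7%, and among 413 processed pseudogenes 19.4% and 5.08%. These 6 shares all lie below those of all tested genes. Among transcription factor families, C2H2 zinc-finger genes (474 tested) had 20.2% higher and 14.6% lower, both below the shares of all tested genes. ZBTB genes (40 tested) had 10% and 30%. Genes with 0 counts in both KO libraries included PLA2G2A, a secreted phospholipase, with 52 and 40 counts in WT (at least 15.3-fold lower), and the airway protein gene BPIFA1, with 29 and 16 counts (at least 7.53-fold lower).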
